A study of Mus musculus with 24 samples.

Results

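The genes examined here are 10 genes that carry the calcium signal of the T cell receptor (TCR): the calcium sensors Stim1 and Stim2, the channel subunits Orai1 and Orai2, the potassium channel Kcnn4, the calcineurin subunit Ppp3ca, the calcineurin regulator Rcan1, and the transcription factors Nfatc1, Nfatc2 and Nfatc3. They were taken by symbol, as the rows of the count table whose Ensembl identifiers carry these names. All 10 were among the 54446 identifiers of the table, and all 10 were among the 15325 genes left for testing by a filter on low counts.

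RNA was sequenced from splenic CD4+ T cells of 6 C57BL6 mice, of which 3 were WT by their labels (1, 3 and 4) and 3 were Aim2-/- (1, 2 and 4). Aim2 encodes a cytosolic DNA sensor, and the Aim2-/- animals carry the deficiency in all their cells, not in T cells alone. From every mouse, cells were taken without stimulation (0 h) and after 3, 6 and 24 h in culture with anti-CD3 and anti-CD28 antibodies that ligate the TCR complex and its costimulatory receptor. The 24 libraries thus form 8 groups of 3, each of 1 genotype and 1 time. No further allele or agent is named for any group, and the ages of the mice are not given in the sources used here. The time course asks how TCR stimulation changes gene expression and whether the change depends on Aim2. No group holds cells cultured for 3, 6 or 24 h without the antibodies. Changes against 0 h therefore hold both the stimulation and the time in culture, which cannot be told apart.

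TCR engagement generates inositol trisphosphate, which releases calcium from the endoplasmic reticulum. STIM proteins sense the emptied store and open ORAI channels in the plasma membrane, which is called store-operated calcium entry, while potassium efflux through KCNN4 keeps the electrical drive for calcium. Calcium and calmodulin activate the phosphatase calcineurin, which dephosphorylates NFAT proteins so that they enter the nucleus and switch on cytokine genes. RCAN1 binds calcineurin, and its short form is itself transcribed from an internal, NFAT-responsive promoter. Activity in this pathway is set largely by calcium and phosphorylation, which mRNA counts do not measure.

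Levels are given as CPM, a library's count of the gene divided by its TMM-scaled total and given per 1e+06. Library totals ranged from 19715161 to 21627018, and 3 counts, below which a gene was treated as not detected, were worth 0.129 to 0.155 CPM. The least abundant of the 10 genes, Rcan1, had at least 155 counts in each library. The CD4 T cell markers (Cd4, Cd3e, Cd3g, Cd3d, Trac and Cd5) summed to 2757 to 4035 CPM. Aim2 itself went against 1 label: over the 4 times it ranged over 5.57 to 21.5 CPM in mouse WT 1 and 5.28 to 20.1 CPM in the Aim2-/- mice, and over 32.5 to 75.0 CPM in WT 3 and WT 4. Results that use the mouse labelled WT 1 are therefore also given without it where it decides a call. For tests of single genes this was done only in the edgeR fit without a mouse block or marker scores.

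The sequence context of the genes is given first. RefSeq promoter windows (GRCm38.p6, 250 bases before to 50 bases after a start of transcription) were found for 8 of the 10 genes, 11 windows in all. Each was searched on both strands for GGAAA, the core of NFAT binding sites, whose reverse complement is TTTCC. The motif is short, and 61.3% of all 32851 windows of this length held it at least once. Of the 11 windows, 5 held it. Nfatc2 had 3 matches in its first window and 1 in its second, Nfatc3 had 1 in 1 of its windows, and Orai2 had 1. Rcan1 had 0 at its upstream start and 3 at its internal start, 1 forward and 2 reverse. Of all windows, 9.42% held at least 3 matches, as did the first window of Nfatc2 and the internal window of Rcan1. The windows of Orai1, Stim1, Stim2 and Kcnn4 held 0 matches, which says only that these letters are not in them. Rcan1 is shown because it was the only one of the 10 genes that was higher at both 6 h and 24 h in both genotypes. Orai1 and Orai2 are shown because they moved in opposite directions in WT cells at 3 and 6 h. Capitals mark the motif on either strand, and each window is written 5′ to 3′ on the strand of its gene. The upstream Rcan1 window is chr16:92466120-92466419 and the internal one chr16:92400029-92400328 (both minus strand), the Orai1 window is chr5:123014824-123015123 (plus strand) and the Orai2 window is chr5:136170607-136170906 (minus strand). Counts per gene do not tell which Rcan1 start was used.
Rcan1 upstream: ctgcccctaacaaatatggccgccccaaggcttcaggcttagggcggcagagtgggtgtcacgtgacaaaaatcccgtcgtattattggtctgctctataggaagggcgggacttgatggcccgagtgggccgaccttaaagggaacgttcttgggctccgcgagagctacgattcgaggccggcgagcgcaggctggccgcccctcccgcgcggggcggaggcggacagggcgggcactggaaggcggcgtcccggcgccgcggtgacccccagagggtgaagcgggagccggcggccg
Rcan1 internal: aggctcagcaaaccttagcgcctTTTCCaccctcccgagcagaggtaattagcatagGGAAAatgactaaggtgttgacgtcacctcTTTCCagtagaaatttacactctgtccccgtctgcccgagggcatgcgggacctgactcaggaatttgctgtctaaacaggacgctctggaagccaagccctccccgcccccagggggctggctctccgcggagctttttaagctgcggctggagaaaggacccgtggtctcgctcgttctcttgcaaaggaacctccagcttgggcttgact
Orai1: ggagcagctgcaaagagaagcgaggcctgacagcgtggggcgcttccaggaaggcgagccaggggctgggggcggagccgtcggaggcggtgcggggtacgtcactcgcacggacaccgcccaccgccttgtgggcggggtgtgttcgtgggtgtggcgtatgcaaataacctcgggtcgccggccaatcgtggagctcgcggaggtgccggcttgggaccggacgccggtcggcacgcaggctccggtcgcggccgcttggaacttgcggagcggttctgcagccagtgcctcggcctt
Orai2: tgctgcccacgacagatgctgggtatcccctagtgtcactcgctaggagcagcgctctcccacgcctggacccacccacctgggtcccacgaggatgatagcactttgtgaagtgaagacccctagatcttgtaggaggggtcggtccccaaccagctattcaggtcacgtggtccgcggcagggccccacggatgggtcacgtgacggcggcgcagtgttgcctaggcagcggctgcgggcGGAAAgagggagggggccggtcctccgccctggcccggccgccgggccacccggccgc

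Most of the 10 genes changed after the start of stimulation, and by 24 h 8 were lower and 1 higher in both genotypes. Genes were called when their adjusted p was under 0.05 in edgeR's quasi-likelihood test (two-sided, Benjamini-Hochberg over all 15325 genes), and log2 changes are given with their standard error (SE). In WT cells 7 of the 10 were called at 3 h, when 32.6% of all genes were. Of these, 2 were higher (16.2% of all genes were called higher) and 5 lower (16.4%). At 6 h 8 were called in WT cells (51.1% of all genes), 3 of them higher (26.4%) and 5 lower (24.8%). At 24 h 9 were called (71.4%), 1 higher (36.6%) and 8 lower (34.8%). Aim2-/- cells had 4 calls at 3 h (30.7% of all genes), all of them lower (14.6%, with 16.1% called higher). At 6 h they had 7 (51.2%), 1 higher (28.5%) and 6 lower (22.7%), and at 24 h 9 (70.3%), 1 higher (36.8%) and 8 lower (33.5%). The direction was less even than among all genes. The median log2 change of the 10 genes was -0.34, -0.27 and -0.51 at 3, 6 and 24 h in WT cells, where that of all genes was 0.015, 0.019 and -0.013. The Aim2-/- medians were -0.21, -0.33 and -0.95, against 0.017, 0.078 and 0.030 for all genes. In whole populations of cells, fewer expressing cells and less RNA per cell cannot be told apart. CPM are shares of a library, so a lower CPM does not tell whether the amount of a transcript per cell fell.

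**Figure D1:**
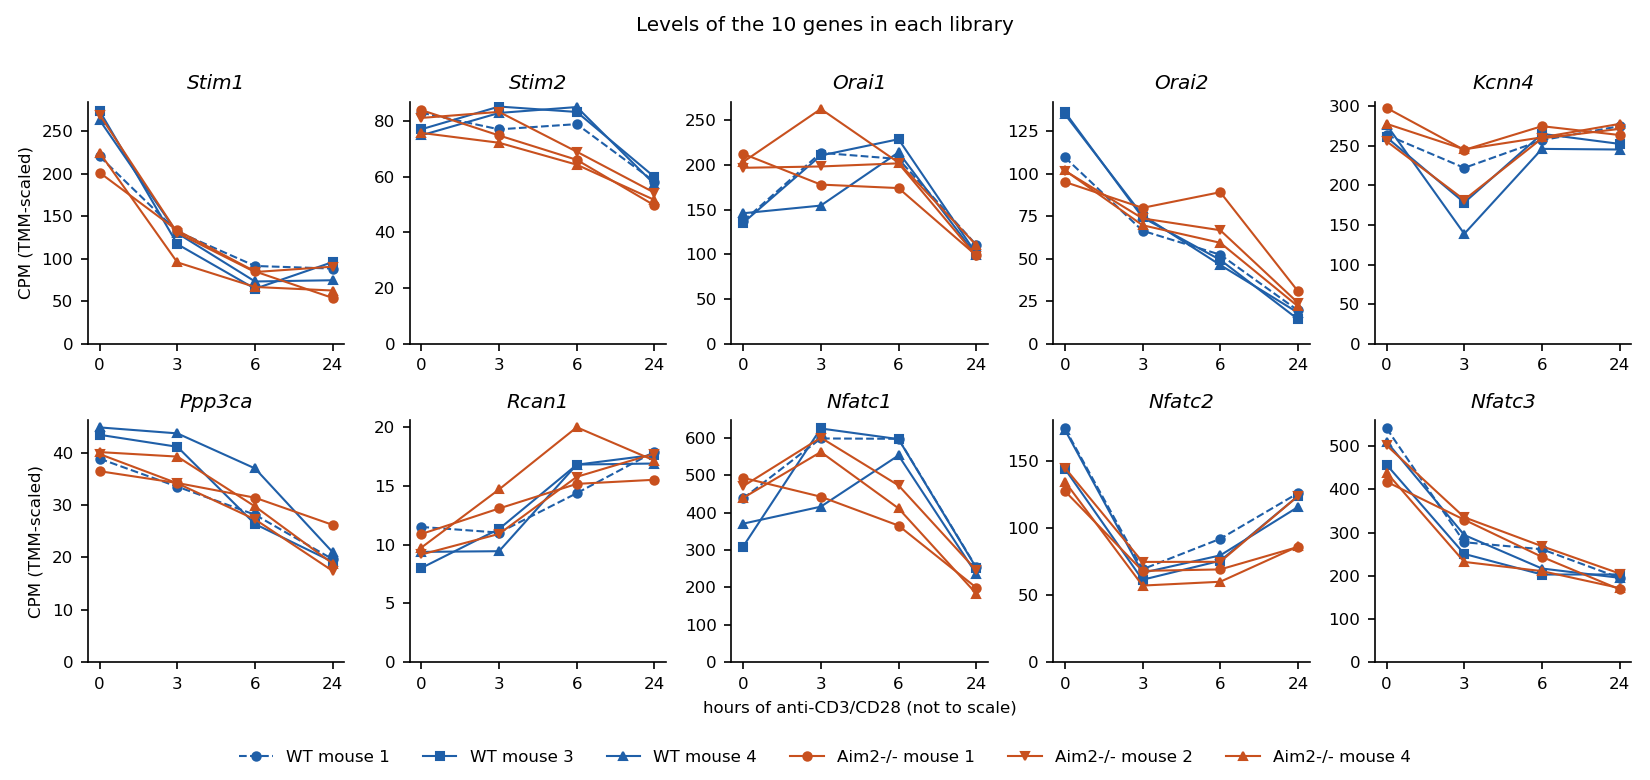
Level (TMM-scaled CPM, linear axes from 0) of each of the 10 genes at 0, 3, 6 and 24 h of stimulation, 1 line per mouse (WT blue, Aim2-/- orange, the mouse labelled WT 1 dashed). Stim1, Nfatc3 and Orai2 ended below their 0 h level in all 6 mice, Rcan1 ended above it in all 6, and Orai1 and Nfatc1 peaked at 3 or 6 h in the 3 WT mice.

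The 2 calcium sensors diverged. Stim1 (ENSMUSG00000030987, chr7:102267806-102437319, GRCm38), the main sensor of store depletion, was lower in CPM at every later time, whereas Stim2 (ENSMUSG00000039156, chr5:53998499-54121057), which responds to smaller drops of stored calcium, was not called in WT cells before 24 h. At 0 h Stim1 stood at 220.3, 274 and 263 CPM in WT mice 1, 3 and 4 and at 201, 269 and 225 CPM in Aim2-/- mice 1, 2 and 4. At 3 h Stim1 was at 132, 117 and 130 CPM in WT and 133, 130.4 and 95.7 CPM in Aim2-/- cells. All 6 mice were thus below their own 0 h value within 3 h, and the groups of libraries at 0 and 3 h did not overlap in either genotype. At 6 h Stim1 was at 91.4, 64.7 and 73.2 CPM in WT and 85.0, 84.3 and 66.7 CPM in Aim2-/- cells. At 24 h Stim1 was at 88.4, 96.1 and 74.6 CPM in WT and 53.8, 90.6 and 62.5 CPM in Aim2-/- cells. The fall from 0 h was thus largely reached by 6 h, and the step from 6 to 24 h was not called (adjusted p 0.406 in WT and 0.379 in Aim2-/- cells). Without the 24 h library of Aim2-/- mouse 2, the Aim2-/- step of -0.19 became -0.44 (adjusted p 0.0433). On the log2 scale the WT change of Stim1 was -0.999, -1.72 and -1.55 at 3, 6 and 24 h (SE 0.18 each, adjusted p 0.00015, 7.8e-08 and 1.1e-07). The Aim2-/- change was -0.95, -1.56 and -1.75, with adjusted p of 0.00031 or less.

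Stim2 ranged over 74.9 to 85.2 CPM in the 9 WT libraries of 0, 3 and 6 h and over 57.3 to 59.9 CPM at 24 h. Its Aim2-/- values ranged over 75.8 to 84.0 CPM at 0 h, 72.2 to 83.3 at 3 h, 64.3 to 69.0 at 6 h and 49.7 to 54.3 at 24 h. WT cells thus had less Stim2 at 24 h, by -0.42 (SE 0.069, adjusted p 1.5e-05) on the log2 scale. Their 6 h value was 0.073 (SE 0.069, adjusted p 0.398), with a 95% interval of -0.073 to 0.22. Aim2-/- cells already had less Stim2 at 6 h (-0.27, SE 0.069, adjusted p 0.00239) and less still at 24 h (-0.63, SE 0.070, adjusted p 6.4e-08). The Aim2-/- call at 6 h was lost with scaling by library totals only (-0.15, adjusted p 0.0663), a scaling that moved the median of all genes by 0.12 in that comparison. It moved that median by 0.107 (WT, 3 h) and 0.116 (Aim2-/-, 3 h) as well, and by less than 0.1 in the other stimulation comparisons.

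The channel subunits moved in opposite directions early on. Orai1 (ENSMUSG00000049686, chr5:123015074-123030456), the pore-forming subunit of the channel in T cells, rose in WT cells and then dropped below its starting level, while Orai2 (ENSMUSG00000039747, chr5:136147459-136170713), which forms mixed channels with ORAI1 and reduces their current, fell at every time. Orai1 stood at 137, 135 and 146 CPM at 0 h in WT mice 1, 3 and 4, at 214, 211 and 155 CPM at 3 h, at 207, 229 and 214 CPM at 6 h and at 111, 100.8 and 98.8 CPM at 24 h. In Aim2-/- mice 1, 2 and 4 it stood at 213, 197 and 203 CPM at 0 h, at 178, 198 and 263 CPM at 3 h, at 174, 202 and 203 CPM at 6 h and at 98.9, 98.1 and 110.5 CPM at 24 h. The Aim2-/- libraries began where the WT libraries arrived, and both genotypes ended at a like level near 100 CPM. The WT rise of Orai1 was 0.47 by 3 h and 0.64 by 6 h (SE 0.12 each, adjusted p 0.00552 and 0.00019). The 3 h call rested on single mice, since Orai1 had an adjusted p of 0.1 without the mouse labelled WT 1 and 0.145 without WT 3. The Aim2-/- values of Orai1 against 0 h were 0.061 and -0.082 (SE 0.12 each, adjusted p 0.76 and 0.604). At 24 h Orai1 was lower than at 0 h in all 6 mice, by -0.43 (adjusted p 0.00389) in WT and -0.995 (SE 0.13, adjusted p 3.9e-07) in Aim2-/- cells.

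Orai2 gave the largest change of the 10 genes. In WT mice 1, 3 and 4 it went from 109.8, 137 and 135 CPM at 0 h to 66.5, 74.3 and 75.7 CPM at 3 h, 52.4, 49.4 and 46.4 CPM at 6 h and 19.6, 14.4 and 18.3 CPM at 24 h. In Aim2-/- mice 1, 2 and 4 it went from 95.3, 102 and 102 CPM to 80, 73.8 and 69.8 CPM at 3 h, 89.2, 66.8 and 59.4 CPM at 6 h and 30.9, 24.1 and 22.0 CPM at 24 h. All 6 mice were lower than at 0 h at each later time. In WT cells Orai2 fell by 0.82 (SE 0.14), 1.36 (SE 0.14) and 2.87 (SE 0.15, adjusted p 8.0e-13) at 3, 6 and 24 h, which at 24 h is a 7.30-fold lower level. Orai2 in Aim2-/- cells fell by 0.42 (adjusted p 0.0254), 0.47 (adjusted p 0.00708) and 1.96 (SE 0.15, adjusted p 1.6e-10), which at 24 h is 3.88-fold lower. The Aim2-/- calls at 3 and 6 h were lost with library totals only (adjusted p 0.136 and 0.0591) and on leaving out Aim2-/- mouse 2 (0.134 and 0.0804) or mouse 4 (0.136 and 0.103).

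Kcnn4 (ENSMUSG00000054342, chr7:24370263-24386690), the calcium-activated potassium channel, dipped and recovered. It ranged over 261 to 277 CPM in WT cells at 0 h, 139 to 222 at 3 h, 246 to 265 at 6 h and 245 to 275 at 24 h. The Aim2-/- range of Kcnn4 was 256 to 298 CPM at 0 h, 182 to 246 at 3 h, 259 to 275 at 6 h and 264 to 278 at 24 h. Each of the 6 mice was lower at 3 h than at 0 h, by a log2 change between -0.18 and -0.99. The fall was called in WT cells (-0.57, SE 0.13, adjusted p 0.00124) and stood at -0.31 (SE 0.13, adjusted p 0.0686) in Aim2-/- cells. With each mouse as a block, the Aim2-/- change of Kcnn4 was -0.31 with an adjusted p of 0.021. Between 3 and 6 h Kcnn4 rose by 0.51 (SE 0.13, adjusted p 0.00459) in WT cells, a call lost without WT 3 (adjusted p 0.0774) or WT 4 (0.0692). At 6 and 24 h the values against 0 h lay between -0.065 and -0.033 in both genotypes, with 95% intervals that lay within -0.33 to 0.232.

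Ppp3ca and Rcan1 went opposite ways. Ppp3ca (ENSMUSG00000028161, chr3:136670124-136937727), a catalytic subunit, ranged over 38.9 to 44.8 CPM in WT and 36.5 to 40.1 CPM in Aim2-/- cells at 0 h and over 19.2 to 21.0 CPM and 17.4 to 26.2 CPM at 24 h. At 24 h it was lower by -1.09 (SE 0.14, adjusted p 7.1e-07) in WT and -0.90 (SE 0.14, adjusted p 1.0e-05) in Aim2-/- cells. At 6 h the Ppp3ca change was -0.47 (adjusted p 0.00746) in WT cells and -0.40 (adjusted p 0.0231) in Aim2-/- cells. Both 6 h calls depended on single mice, with adjusted p of 0.0879 without WT 3, and of 0.136 and 0.113 without Aim2-/- mouse 2 or 4, and the Aim2-/- one was also lost with library totals only (0.115).

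Rcan1 (ENSMUSG00000022951, chr16:92391953-92470867) was the least abundant of the 10 genes in counts. Its CPM at 0 h were 11.5, 8.01 and 9.38 in WT mice 1, 3 and 4 and 10.9, 9.16 and 9.75 in Aim2-/- mice 1, 2 and 4. At 3 h Rcan1 was at 11.02, 11.3 and 9.44 CPM in WT and 13.1, 10.9 and 14.7 CPM in Aim2-/- cells. Only 5 of the 6 mice were above their 0 h value at that time. At 6 h Rcan1 was at 14.4, 16.8 and 16.8 CPM in WT and 15.2, 15.8 and 19.97 CPM in Aim2-/- cells, and at 24 h at 17.9, 17.6 and 16.9 CPM and 15.5, 17.7 and 17.1 CPM. All 6 mice were above 0 h at both later times, and the libraries of 6 and 24 h did not overlap those of 0 h. The WT rise was 0.73 by 6 h and 0.86 by 24 h (SE 0.15 each, adjusted p 0.00026 and 2.3e-05), and the Aim2-/- rise 0.77 and 0.76 (SE 0.15 each, adjusted p 0.00016 and 0.0001). At 3 h the values of Rcan1 were 0.14 (adjusted p 0.525) in WT and 0.38 (SE 0.15, adjusted p 0.0574) in Aim2-/- cells, and with the mouse block the latter became 0.37 (adjusted p 0.0389). Most of the WT rise of Rcan1 came between 3 and 6 h (0.59, SE 0.15, adjusted p 0.00476), a step lost without WT 4 (adjusted p 0.135).

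**Figure D2:**
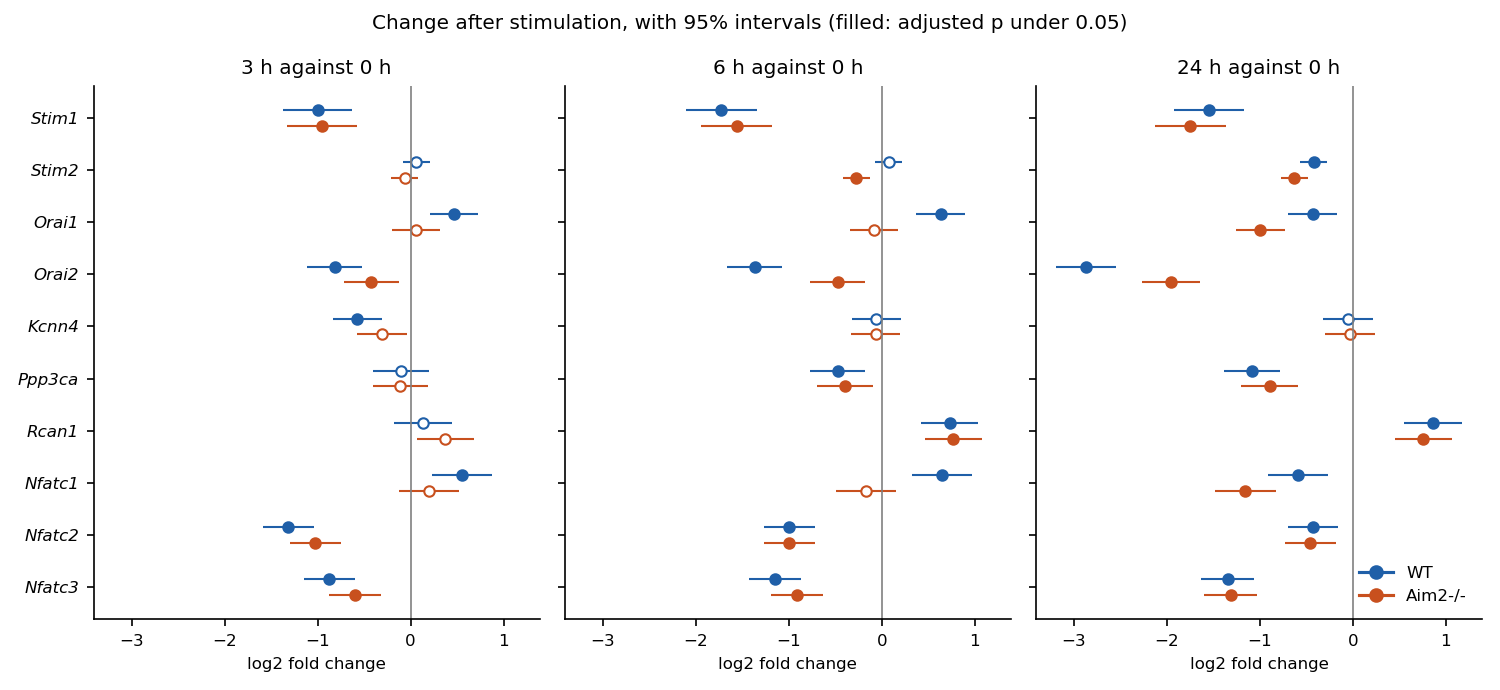
Log2 fold change of the 10 genes at 3, 6 and 24 h against 0 h, with 95% intervals, in WT (blue) and Aim2-/- cells (orange); filled points have an adjusted p under 0.05. Rcan1 lies to the right of 0 at 6 and 24 h in both genotypes, Stim1, Orai2, Nfatc2 and Nfatc3 lie to the left at all 3 times, and Orai1 and Nfatc1 lie to the right at 3 and 6 h in WT cells and turn to the left at 24 h.

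The 3 NFAT factors did not move together. Nfatc1 (ENSMUSG00000033016, chromosome 18), whose short isoform is induced by NFAT itself, had a transient rise in WT cells, while Nfatc2 (ENSMUSG00000027544, chr2:168476410-168601657) and Nfatc3 (ENSMUSG00000031902, chr8:106058840-106130537), the forms already present in resting T cells, fell. Nfatc1 stood at 438, 309 and 370.2 CPM at 0 h in WT mice 1, 3 and 4, at 598, 624 and 416 CPM at 3 h, at 597, 596 and 553 CPM at 6 h and at 254, 253 and 237 CPM at 24 h. In Aim2-/- mice 1, 2 and 4 Nfatc1 was at 493, 470.2 and 439 CPM at 0 h, at 442, 599.9 and 562 CPM at 3 h, at 365, 472 and 411 CPM at 6 h and at 199, 246 and 183 CPM at 24 h. The 3 WT mice were all above their own 0 h value at 3 and 6 h, against 2 of the 3 Aim2-/- mice at 3 h and 1 of 3 at 6 h. The WT rise of Nfatc1 was 0.55 by 3 h and 0.64 by 6 h (SE 0.15 each, adjusted p 0.00755 and 0.00124). Without WT 3, the mouse of the lowest 0 h level, these became 0.31 (adjusted p 0.282) and 0.47 (adjusted p 0.0532). The Aim2-/- values of Nfatc1 were 0.19 and -0.17 (SE 0.15 each, adjusted p 0.376 and 0.377). By 24 h Nfatc1 was lower than at 0 h in all 6 mice, by -0.59 (SE 0.15, adjusted p 0.00172) in WT and -1.16 (SE 0.15, adjusted p 9.2e-07) in Aim2-/- cells.

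Nfatc2 fell fast and partly came back. It was at 175, 144 and 173 CPM at 0 h in WT mice 1, 3 and 4, at 69.3, 61.5 and 66.7 CPM at 3 h, at 92.0, 75.7 and 79.7 CPM at 6 h and at 126, 123.8 and 116 CPM at 24 h. In Aim2-/- mice 1, 2 and 4 Nfatc2 was at 128, 145 and 135 CPM, then at 68.1, 74.8 and 57.2 CPM, 69.2, 74.9 and 60.01 CPM, and 85.9, 123.8 and 86.3 CPM. The lowest WT value was thus reached at 3 h, and the 24 h libraries lay between those of 6 h and 0 h in both genotypes. At 3 h Nfatc2 had fallen by 1.32 (SE 0.13, adjusted p 1.8e-07) in WT and 1.03 (SE 0.13, adjusted p 5.8e-06) in Aim2-/- cells. From 6 to 24 h it rose by 0.56 (SE 0.13, adjusted p 0.0009) and 0.54 (SE 0.13, adjusted p 0.0016). It was still lower at 24 h than at 0 h, by -0.43 (adjusted p 0.00544, and 0.0635 without WT 4) and -0.46 (adjusted p 0.00346). Nfatc3 fell and stayed low. It ranged over 457 to 541 CPM in WT and 418 to 502 CPM in Aim2-/- cells at 0 h, and over 195 to 203 CPM and 169 to 205 CPM at 24 h. Its log2 changes were -0.87, -1.15 and -1.35 (SE 0.13 each, adjusted p 2.9e-05 or less) at 3, 6 and 24 h in WT cells and -0.60 (adjusted p 0.00155), -0.91 and -1.32 in Aim2-/- cells. All 6 mice were lower than at 0 h at each time for both Nfatc2 and Nfatc3.

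Between successive times, 4 of the 10 genes were called from 3 to 6 h in WT cells, when 25.7% of all genes were called, and 6 from 6 to 24 h (57.6% of all genes). The Aim2-/- steps gave 2 calls (23.3% of all genes) and 7 (54.3%). The early WT steps were those of Rcan1 and Kcnn4 upwards and of Stim1 (-0.73, SE 0.18, adjusted p 0.00442) and Orai2 (-0.55, SE 0.14, adjusted p 0.00625) downwards. The early Aim2-/- steps were those of Stim1 (-0.61, SE 0.18, adjusted p 0.0165) and Stim2 (-0.21, SE 0.069, adjusted p 0.0334). Stim1's WT step was lost without WT 3 or WT 4, Orai2's without WT 4, and both Aim2-/- steps without mouse 1 or mouse 4, that of Stim2 also without mouse 2. With the mouse block 7 genes were called in WT cells (36.1% of all genes in the same fit), which added Nfatc2 (0.32, adjusted p 0.00553), Nfatc3 (-0.28, adjusted p 0.0246) and Ppp3ca (-0.37, adjusted p 0.0155), and 5 in Aim2-/- cells (35.5%), which added Nfatc1 (-0.36, adjusted p 0.0241), Nfatc3 (-0.31, adjusted p 0.0139) and Rcan1 (0.39, adjusted p 0.027). From 6 to 24 h the calls shared by both genotypes were Nfatc1 (-1.23 in WT and -0.99 in Aim2-/- cells), Orai1 (-1.07 and -0.91), Orai2 (-1.50 and -1.48), Stim2 (-0.49 and -0.36) and Ppp3ca (-0.61 and -0.50) downwards and Nfatc2 upwards. Nfatc3 was called in this step in Aim2-/- cells (-0.41, adjusted p 0.0131, and 0.0903 without Aim2-/- mouse 1) and had a WT value of -0.20 (adjusted p 0.206, and -0.25 with 0.044 when fitted on the libraries compared only). The Aim2-/- step of Ppp3ca was lost without Aim2-/- mouse 4 (-0.43, adjusted p 0.0704).

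Ratios of family members within a library do not depend on its scaling, and each mouse serves as its own control. They were compared with 0 h over the 6 mice by an exact two-sided sign-flip permutation test, whose smallest p is 0.03125, adjusted over 12 tests. The count ratio of Nfatc1 to Nfatc2 was 2.26 at 0 h in WT cells (geometric mean, n = 3) and 3.44 in Aim2-/- cells. It stood at 8.17 and 7.996 at 3 h, 7.08 and 6.11 at 6 h and 2.03 and 2.14 at 24 h. Counts of Nfatc1 thus exceeded those of Nfatc2 most at 3 h, and by 24 h the ratio was back near 2, below its 0 h value. Over the 6 mice this ratio rose 2.90-fold at 3 h and 2.36-fold at 6 h and was 0.749-fold at 24 h, in 6 of 6 mice each time (exact p 0.03125, adjusted p 0.0375). The ratio of Nfatc1 to Nfatc3 rose 2.16-fold, 2.42-fold and 1.38-fold, again in 6 of 6 mice at each time (adjusted p 0.0375 in the exact test), although 1 mouse moved by only 0.0032 on the log2 scale at 24 h. The ratio of Stim2 to Stim1 rose 1.96-fold, 2.92-fold and 2.20-fold in 6 of 6 mice (adjusted p 0.0375 in the exact test), from 0.311 to 1.09 between 0 and 6 h in WT cells and from 0.349 to 0.850 in Aim2-/- cells.

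The ratio of Orai1 to Orai2 went from 1.10 at 0 h to 2.65, 4.39 and 5.98 at 3, 6 and 24 h in WT cells and from 2.05 to 2.83, 2.72 and 4.03 in Aim2-/- cells. At 24 h it was 3.27-fold higher than at 0 h over the 6 mice, in 6 of 6 mice (exact p 0.03125, adjusted p 0.0375). At 3 and 6 h it was 1.82-fold and 2.30-fold higher in 5 of 6 mice and did not pass (adjusted p 0.0625 in the exact test), Aim2-/- mouse 1 being the exception. All WT mice ran from near equal counts of both subunits to a clear excess of Orai1 counts. These counts are not corrected for gene length. Per kilobase of exon, Orai1 already stood at 60.8 CPM and Orai2 at 20.9 CPM in WT cells at 0 h. Between genotypes, an exact permutation test of 3 against 3 mice cannot go below p 0.1, and the adjusted p over 16 tests was 0.229 or more. The largest difference was that of Orai1/Orai2 at 0 h, 0.895 on the log2 scale (1.03 in Aim2-/- against 0.14 in WT cells), where the groups did not overlap. At 6 and 24 h this ratio was lower in Aim2-/- cells, by -0.69 and -0.569, also without overlap. Nfatc1/Nfatc2 at 0 h (0.61) and Nfatc1/Nfatc3 at 0, 6 and 24 h (0.493, -0.578 and -0.123) did not overlap either.

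**Figure D3:**
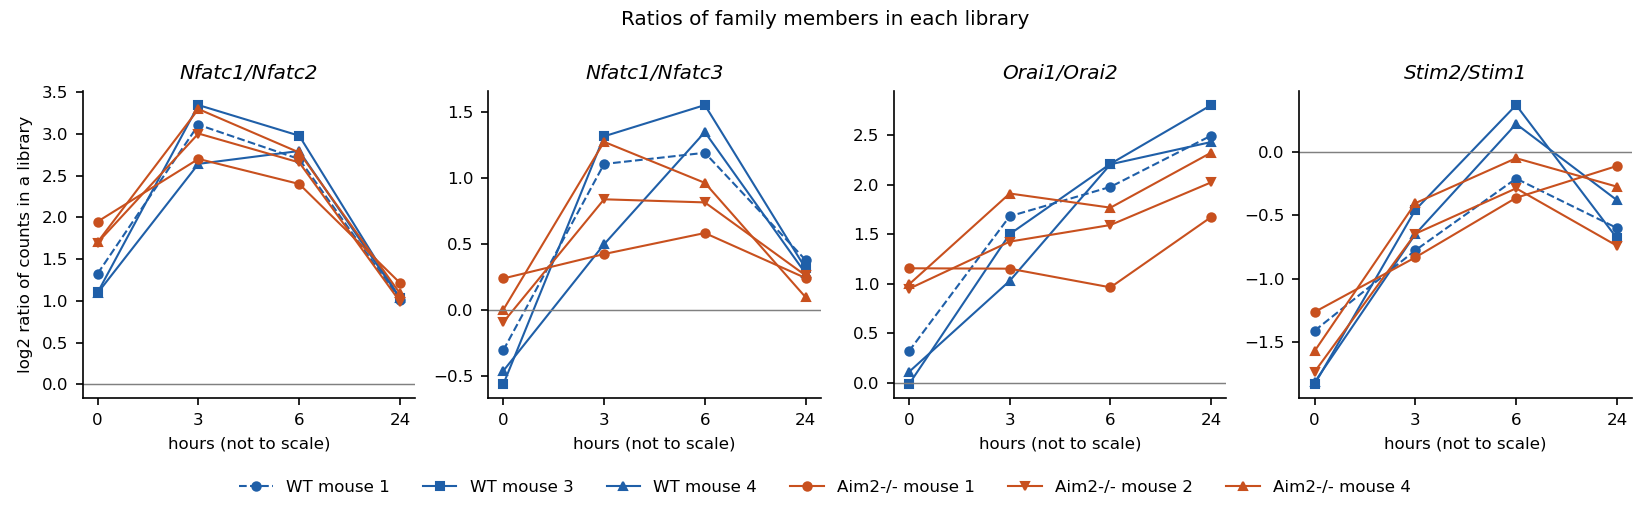
Log2 ratio of the counts of 2 family members within each library at 0, 3, 6 and 24 h, 1 line per mouse (WT blue, Aim2-/- orange, the mouse labelled WT 1 dashed), with a grey line at equal counts. Nfatc1/Nfatc2 peaks at 3 h in 5 of the 6 mice and falls back by 24 h, Orai1/Orai2 ends higher than it began in all 6 mice, and Stim2/Stim1 rises from 0 to 6 h in all 6.

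Per kilobase of exon, which allows levels of different genes to be compared, the 3 NFAT transcripts summed to 108 ± 13.7 CPM per kb (SD, n = 3) at 0 h in WT cells. The later WT sums, at 3, 6 and 24 h, were 103 ± 13.5, 105 ± 5.49 and 61.6 ± 1.99 CPM per kb (SD, n = 3). The 4 Aim2-/- sums were 114 ± 5.27, 103 ± 11.4, 82.7 ± 9.18 and 52.9 ± 8.06 CPM per kb (SD, n = 3). Up to 6 h the WT sums differed by less than 1 SD at 0 h while their make-up changed. Nfatc1 made up 45.9% ± 2.21 (SD, n = 3) of it at 0 h and, at 3, 6 and 24 h, 70.7% ± 6, 74.2% ± 2.25 and 53.9% ± 0.453, in WT cells, and 54.9%, 69.1%, 67.3% and 53.04% in Aim2-/- cells. The share of Nfatc3 in WT cells went from 39.8% to 18.4% at 6 h and 27.4% at 24 h, and that of Nfatc2 from 14.4% to 6.14% at 3 h and 18.7% at 24 h. These sums and shares are descriptions of the levels above and carry no test of their own.

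**Figure D4:**
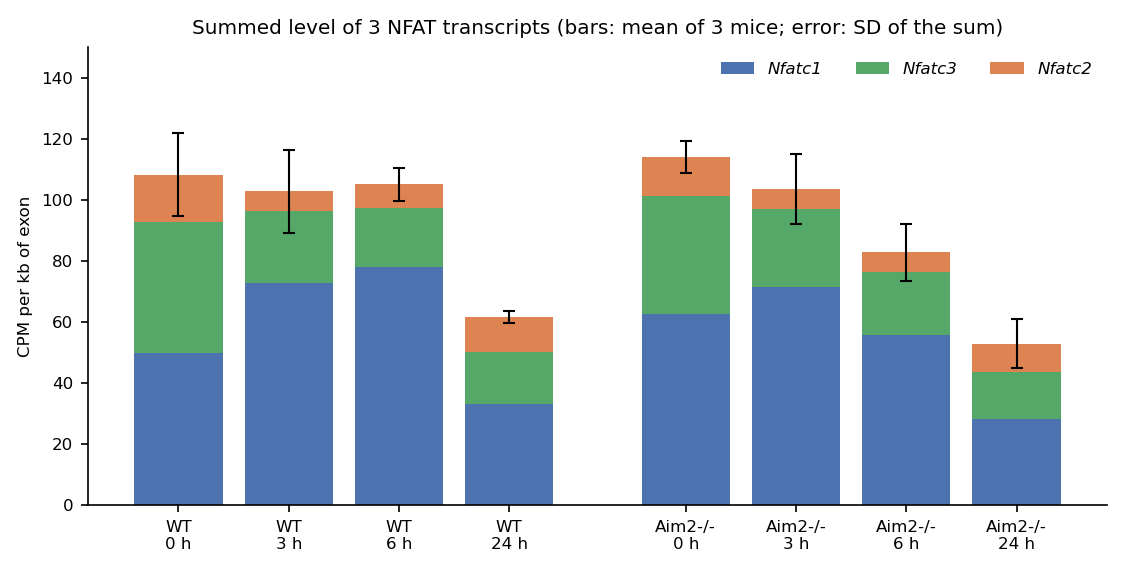
Summed level of Nfatc1, Nfatc3 and Nfatc2 in CPM per kb of exon for each genotype and time (stacked bars from 0, mean of 3 mice; error bars, SD of the sum). In WT cells the sum stays between 103 and 108 up to 6 h as the Nfatc1 part grows, and drops to 61.6 at 24 h.

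Ranked per kb in WT cells at 0 h, Orai1 was highest at 60.8 ± 2.52 CPM per kb (SD, n = 3). It was followed by Kcnn4 (52.2 ± 1.63), Nfatc1 (49.8 ± 8.62) and Nfatc3 (42.9 ± 3.63). Kcnn4, Nfatc1 and Nfatc3 overlapped their neighbours in this order, whereas Orai1 did not overlap Kcnn4. Stim1 (24.4 ± 2.74) and Orai2 (20.9 ± 2.48), which overlapped, came next, then Nfatc2 (15.5 ± 1.63) and Stim2 (15.3 ± 0.819), which also overlapped. Ppp3ca (4.25 ± 0.313) and Rcan1 (3.12 ± 0.57) were lowest. At 6 h Orai1 (94.4 ± 4.89) and Nfatc1 (77.9 ± 3.4) led without overlap, and Rcan1 (5.18 ± 0.455) had passed Ppp3ca (3.06 ± 0.57). At 24 h Kcnn4 (50.3 ± 3.01) and Orai1 (45.1 ± 2.76) overlapped at the top, and Orai2 (2.86 ± 0.443) and Ppp3ca (2.0 ± 0.0946) stood last. Stim1 had dropped from place 5 to place 7, below Stim2. At 24 h in Aim2-/- cells Kcnn4 (52.96 ± 1.38) was above Orai1 (44.7 ± 3.01) without overlap.

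The other genes of the pathway, 54 by a list written from general knowledge, included 50 that were tested. Nfatc4, Rcan2, Nron and Cracr2b were not, since they lay at or near 0. Of the 50, 28 (56%), 40 (80%) and 37 (74%) were called in WT cells at 3, 6 and 24 h, where 32.6%, 51.1% and 71.4% of all genes were. Those higher numbered 13, 18 and 17 (16.2%, 26.4% and 36.6% of all genes were called higher). Those lower numbered 15, 22 and 20 (16.4%, 24.8% and 34.8% of all genes were called lower). The Aim2-/- calls numbered 24 (48%), 36 (72%) and 37 (74%), against 30.7%, 51.2% and 70.3% of all genes. Upstream of the store, genes of inositol trisphosphate signalling fell: of Plcg1, Itpr1, Itpr2 and Itpr3, 3 were lower at 3 h and all 4 at 6 and 24 h in both genotypes. At 3, 6 and 24 h, 16.4%, 24.8% and 34.8% of all genes were called lower in WT cells. The Aim2-/- shares were 14.6%, 22.7% and 33.5%. The release channel Itpr2 had a log2 change of -0.96 (SE 0.16) at 3 h in WT cells, and one of -1.79 (SE 0.16, adjusted p 2.6e-09) in Aim2-/- cells by 24 h. Among partners of the channel, Saraf, which switches store-operated entry off, went from 1168 CPM at 0 h to 474 at 3 h, 299 at 6 h and 145 CPM at 24 h in WT cells, a fall of 3.01 (SE 0.10, adjusted p 5.5e-15) at 24 h. Saraf in Aim2-/- cells went from 1058 to 157 CPM at 24 h. Saraf, which restrains the channel, thus fell alongside the sensor Stim1.

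Of the 4 calcium pumps, 3 were lower and 1 higher at 24 h in both genotypes, when 71.4% of all genes were called in WT and 70.3% in Aim2-/- cells. Of all genes, 34.8% and 33.5% were called lower and 36.6% and 36.8% higher. Atp2b4, a pump of the plasma membrane, went from 243 to 14.3 CPM in WT cells by 24 h (-4.09, SE 0.33, adjusted p 4.0e-10), and Atp2a3, a pump of the endoplasmic reticulum, from 301 to 162 CPM by 3 h (-0.90, SE 0.11). The 4 genes of mitochondrial calcium uptake went the other way, with 4 of 4 higher at 24 h in WT cells (36.6% of all genes were called higher) and 3 of 4 in Aim2-/- cells (36.8%). Within calcineurin the subunits moved apart, since Ppp3cc, another catalytic subunit, rose from 29.1 to 128 CPM at 3 h (2.14, SE 0.17, adjusted p 7.1e-09) and 123 CPM at 24 h in WT cells while Ppp3ca fell. The catalytic subunit Ppp3cb ranged over 99.5 to 107 CPM at 0 h and 93.7 to 108 CPM at 24 h in WT cells. Rcan3, the relative of Rcan1, also went opposite to it, from 293 CPM at 0 h to 103 at 3 h and 57.6 CPM at 24 h in WT cells (-2.35, SE 0.16, adjusted p 3.5e-11). The NFAT kinase Dyrk2 fell from 219.8 to 58.0 CPM by 24 h (-1.92, SE 0.10), and the calmodulin kinase Camk4 from 235 to 76.2 CPM by 6 h (-1.62, SE 0.098).

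Of 9 known NFAT target genes, 8 were higher at 3 h and 8 at 6 h in WT cells, and 6 were higher and 2 lower at 24 h, where 16.2%, 26.4% and 36.6% of all genes were called higher and, at 24 h, 34.8% lower. Of the same 9, in Aim2-/- cells 7 were higher at 3 h, 6 were higher and 1 lower at 6 h, and 6 were higher and 2 lower at 24 h, where 16.1%, 28.5% and 36.8% of all genes were called higher. Shares of all genes called lower in Aim2-/- cells were 22.7% at 6 h and 33.5% at 24 h. Il2, the T cell growth factor, went from 1.59 CPM to 18.3 at 3 h, 65.98 at 6 h and 145 CPM at 24 h in WT cells, a log2 rise of 6.51 (SE 0.34, adjusted p 8.0e-13) at 24 h. The Aim2-/- level of Il2 went from 2.54 to 104.5 CPM at 24 h (5.36, SE 0.32). Tnf was highest at 6 h and went from 31.4 CPM to 216, 369 and 156 CPM at 3, 6 and 24 h in WT cells. Fasl, the death receptor ligand, was 1 of the 2 lower at 24 h (-2.005, SE 0.18, adjusted p 2.0e-09, in WT cells).

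The comparison of genotypes gave few calls among the 10 genes, and they fell at 0 and 6 h. At 0 h 1 of the 10 was called, when 5.23% of all genes were called, and at 6 h 3 were called (15.8% of all genes). At 3 h and 24 h 0 were called (0.294% and 0.666% of all genes). Of the 10, 1 and 3 had an unadjusted p under 0.05 in the edgeR test, as did 2350 and 3134 of all 15325 genes. DESeq2 called 0 and 1, and its share of all genes called is not given here. Cell type markers moved with genotype. The summed CPM of 6 B cell markers at 0 h was 3.25 to 4.75 in WT and 10.3 to 34.4 in Aim2-/- libraries, with 5 of 6 markers higher on average, and at 6 h 3.55 to 7.01 and 11.3 to 38.6 (6 of 6 higher). That of 7 myeloid markers was 33.2 to 58.8 against 103 to 357 at 0 h and 21.8 to 49.1 against 62.7 to 227 at 6 h (7 of 7 higher at both). That of 5 erythroid markers was 7.4 to 71.6 against 20.6 to 332 at 0 h and 7.6 to 64.1 against 21.6 to 486 at 6 h (5 of 5 higher, with overlap). The CD4 T cell markers summed to 3520 to 3693 CPM in WT and 3884 to 4035 CPM in Aim2-/- libraries at 0 h. No marker was at 0 in all libraries of a genotype. Models with scores of the B cell, myeloid and erythroid lists are given below, and beyond these the part of other cells in the differences was not tested.

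Orai1 was higher in unstimulated Aim2-/- cells, at 197 to 213 CPM against 135 to 146 CPM in WT cells, without overlap. The difference was 0.55 (SE 0.12, adjusted p 0.0182), a 1.46-fold higher level with a 95% interval of 0.29 to 0.81 on the log2 scale. Without the mouse labelled WT 1 it was 0.54 (adjusted p 0.0394), and with the marker scores in the model 0.59 (adjusted p 0.03). Leaving out WT 3 (0.49, adjusted p 0.15), WT 4 (0.55, adjusted p 0.0734) or Aim2-/- mouse 1 (0.53, adjusted p 0.0573) ended the call, as did leaving out the 0 h library of WT 1 alone (0.50, adjusted p 0.0501) or of Aim2-/- mouse 4 alone (0.52, adjusted p 0.0562). The size of the Orai1 difference therefore stayed between 0.49 and 0.59 in these fits while its call came and went. At 3, 6 and 24 h the Orai1 difference was 0.14, -0.17 and -0.013, with adjusted p of 0.347 or more. Orai2 showed the opposite sign at 0 h (-0.35, SE 0.14, adjusted p 0.128) with groups that did not overlap, 95.3 to 102 CPM in Aim2-/- against 109.8 to 137 CPM in WT cells.

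At 6 h Orai2 was higher in Aim2-/- cells by 0.54 (SE 0.14, adjusted p 0.0185), at 59.4 to 89.2 CPM against 46.4 to 52.4 CPM. Stim2 was lower by -0.31 (SE 0.069, adjusted p 0.011), at 64.3 to 69.0 CPM against 78.9 to 85.1 CPM, and Nfatc1 by -0.48 (SE 0.15, adjusted p 0.0385), at 365 to 472 CPM against 553 to 597 CPM. The groups did not overlap for any of these 3 genes. Without the mouse labelled WT 1, Orai2 (0.58, adjusted p 0.0282) and Stim2 (-0.34, adjusted p 0.016) stayed past the threshold and Nfatc1 (-0.47, adjusted p 0.0781) did not. With the marker scores in the model none of the 3 was called, at 0.34 (adjusted p 0.261) for Orai2, -0.23 (adjusted p 0.147) for Stim2 and -0.30 (adjusted p 0.397) for Nfatc1, so these differences cannot be told apart from those in the marker lists. The share of all genes called in that fit is not given here. Leaving out WT 3, WT 4 or Aim2-/- mouse 1 also ended each of the 3 calls, and leaving out Aim2-/- mouse 4 those of Nfatc1 and Stim2. Without Aim2-/- mouse 1 the Orai2 difference fell from 0.54 to 0.36 (adjusted p 0.098). That mouse had the highest B cell (38.6 CPM), myeloid (227 CPM) and erythroid (486 CPM) marker sums of the 6 h libraries. The Nfatc1 call was also lost with library totals only (-0.43, adjusted p 0.0524), and the Orai2 call when only the libraries compared were fitted (0.53, adjusted p 0.0626). At 24 h the Orai2 difference was 0.56 (SE 0.15, adjusted p 0.0691), and 0.31 (adjusted p 1) with the marker scores in the model, with 22.0 to 30.9 CPM in Aim2-/- against 14.4 to 19.6 CPM in WT libraries and no overlap. At 3 h the value of Kcnn4 was 0.32 (SE 0.13, adjusted p 0.239), and without the mouse labelled WT 1 it was 0.50 (adjusted p 0.0429). The remaining genes, Stim1, Ppp3ca, Rcan1, Nfatc2 and Nfatc3, had differences between -0.32 and 0.28 at all 4 times, with adjusted p of 0.138 or more. Leaving out Aim2-/- mouse 2 added calls: without it Nfatc2 (-0.50, adjusted p 0.00605), Stim1 (-0.57, adjusted p 0.0284) and Orai2 (0.60, adjusted p 0.026) were called at 24 h, and Nfatc2 (-0.35, adjusted p 0.0252) at 6 h and Kcnn4 (0.45, adjusted p 0.0434) at 3 h.

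**Figure D5:**
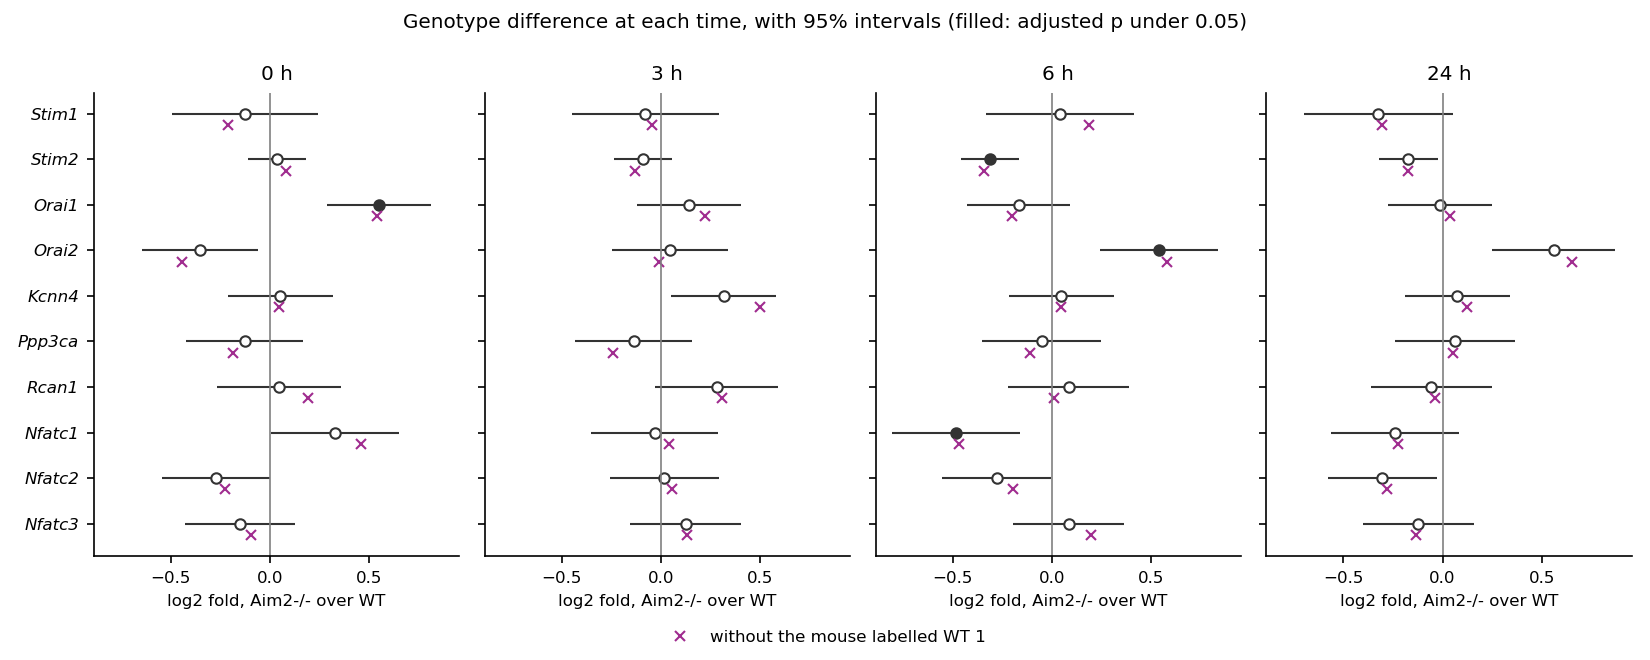
Log2 difference of Aim2-/- over WT cells for the 10 genes at 0, 3, 6 and 24 h, with 95% intervals; filled points have an adjusted p under 0.05, and crosses give the value without the mouse labelled WT 1. The filled points are Orai1 at 0 h (0.55) and Stim2, Orai2 and Nfatc1 at 6 h (-0.31, 0.54 and -0.48).

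Of the 50 other pathway genes 3 (6%), 0, 14 (28%) and 0 were called between genotypes at 0, 3, 6 and 24 h, against 5.23%, 0.294%, 15.8% and 0.666% of all genes, so that the share at 0 h was near that of all genes. At 0 h they were Rcan3 (-0.71, SE 0.15, adjusted p 0.0149), Camk4 (-0.45, SE 0.096, adjusted p 0.0149) and the cation channel Trpm7 (-0.42, SE 0.11, adjusted p 0.038), all lower in Aim2-/- cells. At 6 h 5 were higher and 9 lower, where 55.6% of the calls among all genes were higher. Of the 9 NFAT target genes 6 were not called at 6 h. Among these, Ifng and Csf2 had higher means in Aim2-/- cells, and Il2, Il4, Fasl and Egr2 lower ones. Among the genes called lower were the other 3 targets, Cd40lg (-0.99, SE 0.19, adjusted p 0.0056), Egr3 (-1.08, SE 0.24, adjusted p 0.0116) and Tnf (-0.63, SE 0.18, adjusted p 0.0258). The pump Atp2a2 (-0.67, SE 0.14, adjusted p 0.00929) and the release channel Itpr2 (-0.61, SE 0.16, adjusted p 0.0173) were called lower as well. Orai3, the third channel subunit, was higher (0.44, SE 0.11, adjusted p 0.0147), as was Orai2. Each of these calls was lost on leaving out at least 3 of the 6 mice in turn, except that of Cd40lg, which was lost for none of the 6. Without the mouse labelled WT 1, Trpm7 at 0 h was not called (-0.31, adjusted p 0.117), while Rcan3 (-0.84, adjusted p 0.00384), Camk4 (-0.45, adjusted p 0.0136) and the 6 named at 6 h (adjusted p 0.0472 or less) were. With the marker scores in the model 0 of the 50 were called at 0 h and at 6 h. The share of all genes called in that fit is not given here, so this count does not tell whether the 50 stand out.

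Whether the response itself differed between genotypes was tested as an interaction, the change from 0 h in Aim2-/- cells minus that in WT cells. No gene of the 10 was called at 3, 6 or 24 h in the edgeR fit without a block (0%, 0.0261% and 0% of all genes were called). In that fit 1, 4 and 4 of the 10 had an unadjusted p under 0.05, as did 653, 2019 and 1825 of all 15325 genes. DESeq2 called 0, 4 and 1 of the 10. Its share of all genes called is not given here, so its counts do not tell whether the 10 genes stand out. Each mouse gave cells at all times, and with mouse as a block 4 genes were called at 6 h, when 4.68% of all genes were called in that fit. They were Nfatc1 (-0.83, SE 0.17, adjusted p 0.0127), Orai1 (-0.72, SE 0.15, adjusted p 0.0127), Orai2 (0.87, SE 0.16, adjusted p 0.0112) and Stim2 (-0.35, SE 0.095, adjusted p 0.0415). Without the block their adjusted p were 0.0992, 0.083, 0.0714 and 0.124, at sizes of -0.81, -0.72, 0.89 and -0.35. At 24 h the block gave 2 calls (2.77% of all genes), Orai1 (-0.57, adjusted p 0.0458, and 0.208 without the block) and Orai2 (0.89, adjusted p 0.0119, and 0.0933 without the block). In the blocked fit the change of Orai1 and Nfatc1 by 6 h was thus more positive in the cells labelled WT, and the fall of Orai2 was smaller in Aim2-/- cells. Each of these changes starts from the 0 h libraries, in which Orai1 and Nfatc1 lay higher and Orai2 lower in Aim2-/- cells without overlap. Only the Orai1 difference was called at 0 h, and for Nfatc1 the nearest values were 439 CPM (Aim2-/- mouse 4) and 438 CPM (WT 1). The B cell, myeloid and erythroid marker sums differed between genotypes in the libraries compared, as given above. With their scores in the model, added after seeing the data and without the block, Orai1 (-0.74, adjusted p 0.037) and Orai2 (0.88, adjusted p 0.0361) were called at 6 h (0.685% of all genes), and Nfatc1 (-0.80, adjusted p 0.0603) and Stim2 (-0.33, adjusted p 0.0746) were not. Without the mouse labelled WT 1 and without the block the 6 h values were -0.93, -0.74, 1.03 and -0.42, with adjusted p of 0.149, 0.163, 0.0735 and 0.155. The blocked fit was not run without that mouse, so its calls at 6 and 24 h rest on all 3 WT mice. For the other 6 genes the interaction at 6 and 24 h lay between -0.20 and 0.24.

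The genes whose log2 CPM followed each of the 10 most closely were listed over the 24 libraries, as a description. The points share the time course, so that many genes correlate. Orai2 was most like Neurl3 and Ypel3 (Pearson r 0.987 each), Nfatc3 most like Tmx4 (0.985) and Stk4 (0.984), and Stim1 most like Cpm (0.981). Orai1 was most like Sult2b1 (0.972), and Nfatc1 most like Errfi1 (0.969) and Slc5a3 (0.967), the latter also among the 3 nearest to Orai1 (0.934). Rcan1 was most like Mcu (0.952), the pore of the mitochondrial calcium uniporter and a gene of the pathway list. Kcnn4 had no close partner, its nearest being Degs1 (0.827). Among the 10 genes the closest pairs were Nfatc3 and Stim1 (0.957), Nfatc1 and Orai1 (0.924) and Ppp3ca and Orai2 (0.91), and the most opposed were Rcan1 and Stim1 (-0.885).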

How the data were processed

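Splenic CD4+ T cells of 6 mice at 4 times were analysed as 24 libraries. Per the study's methods and notes, the authors aligned reads with STAR to GRCm38 and deposited raw read counts per gene. Use of strand in counting is not stated, and overlapping genes with a row in the table held at most 0.689% of a member's counts, the antisense gene AC123818.1 at Nfatc1 not being analysed here. Symbols and positions came from GENCODE M21 and matched 54409 of 54446 identifiers.

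Counts were tested with edgeR 4.0.16 (R 4.3.3) by the quasi-likelihood F test with TMM factors, filterByExpr (minimum count 10) and 1 mean per genotype and time over all 24 libraries (16 residual degrees of freedom, biological coefficient of variation 18.6%). Intervals use a level of 95%. CPM use TMM-scaled totals, and ratios a pseudocount of 0.5 counts. The floor of 3 counts covers counting error only. limma 3.58.1 (voom) and DESeq2 1.42.0 served as alternatives. Steps were tested on simulated data.

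The labels give 4 libraries of each mouse, so libraries are paired by mouse within a genotype. Deviations from group means correlated at 0.139 to 0.567 within a mouse (36 pairs) and -0.432 to 0.0742 between mice of a genotype (72 pairs). Fits with a mouse block are given where they change a call. Numbers shared across genotypes name different mice.

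All 10 genes are named in every comparison. Of the pathway list, up to 5 rises and 5 falls per stimulation comparison and up to 8 calls per genotype comparison could be named, with no overlap and at least 5 CPM for the former, and for each gene its 3 most alike genes. Some further genes are named as part of their group. The members and all lists were chosen with earlier results of these data known. No protein sequences were used here. The promoter windows of Nfatc1 and Ppp3ca were not analysed here.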

Additional observations from a re-analysis of the deposited data

Results flagged for a closer look

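Responses to stimulation differed between genotypes for 4 of the 10 genes when the difference itself was tested with each mouse as a block. At 6 h the change from 0 h was smaller or of the other sign in Aim2-/- cells for Nfatc1 (interaction -0.8259 on the log2 scale) and Orai1 (-0.7213), the fall of Orai2 was smaller (0.8661), and the change of Stim2 was more negative (-0.3456). At 24 h Orai1 (-0.5657) and Orai2 (0.891) differed likewise. In the blocked fit 4.68% of all genes were called at 6 h and 2.77% at 24 h. In the edgeR fit without the block none of the 6 was called, while DESeq2 without a block called 4 at 6 h and Orai2 at 24 h. The share of all genes that DESeq2 called is not given here. With B cell, myeloid and erythroid marker scores in the model, Orai1 (-0.74, adjusted p 0.037) and Orai2 (0.88, adjusted p 0.0361) were called at 6 h by edgeR and no member at 24 h. The sums of these markers differed with genotype (myeloid 33.2 to 58.8 CPM in WT and 103 to 357 CPM in Aim2-/- cells at 0 h). The groups did not overlap at 0 h for Nfatc1, Orai1 and Orai2, but of these only Orai1 was called there. For Nfatc1 the nearest values were 439 CPM in Aim2-/- mouse 4 and 438 CPM in WT 1. The share of all genes without overlap is not given here. Of the 3 mice behind the WT response, 1, WT 1, had Aim2 levels near those of the Aim2-/- mice. The blocked fit was not run without WT 1. Without that mouse and without the block, none of the 6 was called.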

How the results depend on the processing

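No called value changed direction under an alternative. Over all 4652 alternative values of single genes, called or not, 211 had the other sign. Each of these 211 was of a value not called in either fit. The counts of members called against 0 h stayed within 1.5 times under every alternative but 1, library totals only, which left 4 in Aim2-/- cells at 6 h. With library totals 64.9% of the genes called at 3 h in WT cells were higher (49.6% with TMM), and 69.3% in Aim2-/- cells (52.4% with TMM), where Rcan1 became a call. All 12 ratio changes kept their side of the threshold with a pseudocount of 5 and their direction on leaving out each mouse, where a test of 5 mice cannot pass.

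From 3 to 6 h the mouse block gave 7 calls in WT and 5 in Aim2-/- cells. DESeq2 gave 4 in Aim2-/- cells, a minimum mean of 1 CPM gave 4, and only the libraries compared gave 1. In the interaction at 6 h the block gave 4 calls, DESeq2 4 and no filter 3, and at 24 h they gave 2, 1 and 1. Marker scores, added after seeing the data, gave 2 at 6 h. Between genotypes, mouse number as a block, which pairs different mice, gave 3, 1 and 3 members at 0, 3 and 24 h and 16, 14, 26 and 14 pathway genes at 0, 3, 6 and 24 h. The marker scores gave 0 members at 6 h and 0 pathway genes at 0 and 6 h. At 24 h DESeq2 and no filter gave 1 member each, and 3 and 5 pathway genes, and a random mouse effect 1. At 3 h they gave 1 and 5 pathway genes. At 0 h no filter gave 5 pathway genes and only the libraries compared 1, and at 6 h the latter gave 8. Shares of all genes called are given above only for the mouse block and for the interaction with marker scores at 6 h. The other counts here, and those below, do not tell whether the listed genes stand out. The causes were not tested.

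On leaving out 1 library or mouse, members called ranged over 0 to 5 (WT) and 0 to 4 (Aim2-/-) from 3 to 6 h, over 0 to 1, 0 to 1, 0 to 4 and 0 to 3 between genotypes at 0, 3, 6 and 24 h, and over 0 to 1 in the interactions at 6 and 24 h. Pathway genes between genotypes ranged over 0 to 6, 0 to 4, 0 to 19 and 0 to 9. Groups of 3 mice limit all genotype comparisons.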
